A study of Mus musculus with 201 samples.

Results

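Vgf, the granins and the enzymes that cut and trim prohormones were followed as 9 genes (Vgf, Scg2, Scg3, Scg5, Chga, Chgb, Pcsk1, Pcsk2 and Cpe) across single mouse dentate granule cells (DGCs) and single DGC nuclei. They were taken by name from the 3 expression tables, of which the largest held 42802 gene symbols, and all 9 were in every table. They were selected on measured values, the TPM and counts of these genes in the 5 groups, so the levels below describe these cells and carry no test.

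The study asked which transcripts accompany neuronal activation, using 201 single cells or nuclei in 5 groups. Whole cells came from Prox1-GFP mice (Prox1-EGFP in the study's methods), in which the Prox1 promoter drives green fluorescent protein, killed 1 h after an injection of the convulsant pentylenetetrazole (PTZ) or of saline, and were dissociated with papain and sorted for GFP. After the criteria on depth and gene number, 30 of 35 PTZ cells and 38 of 47 saline cells were used. Nuclei came from wild-type C57BL/6 mice, which were females of 8 weeks by the study's methods. A mouse explored an unfamiliar enclosure with huts and tunnels, called NE, for 15 min, and its PROX1+ nuclei were sorted by staining for FOS protein about 1 h later, which left 40 of 48 FOS+ and 41 of 48 FOS− nuclei. The last group was 23 PROX1+ NEUN+ nuclei of a home cage (HC) mouse, captured on a microfluidic chip rather than in plates. No label tied a cell to an animal. The whole cells came from hippocampi pooled from 2 mice per treatment by the methods, and from 1 mouse by the description of the series. Each group therefore counted as 1 sample, the SDs below are spreads over cells, and no p-value was computed. The 3 sets differed in amplification, read length and compartment, so levels from different sets stand side by side without a comparison.

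Neurons store peptides in dense-core vesicles. Precursor proteins enter these vesicles at the trans-Golgi network together with granins, acidic proteins that aggregate there and are themselves cut into peptides. The prohormone convertases PC1/3 (Pcsk1) and PC2 (Pcsk2) cut precursors after pairs of basic residues, carboxypeptidase E (Cpe) removes the exposed basic residues, 7B2 (Scg5) is the chaperone of PC2, and secretogranin III (Scg3) binds chromogranin A and tethers it to the vesicle membrane. VGF is a granin-like precursor first found as a transcript induced by nerve growth factor. Mossy fibres, the axons of DGCs, are rich in dense-core vesicles.

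RefSeq promoter windows (250 bases before to 50 after the start, build GRCm38.p6) were matched by symbol for 7 of the 9 genes, Vgf and Cpe being the others. The windows were searched on both strands for TGACGTCA, the palindromic cAMP response element bound by CREB. It was in the windows of Scg2, Chgb and Pcsk1, starting 68, 72 and 78 bases before the start, and not in those of Scg3, Scg5, Chga and Pcsk2. Of all 32851 promoter windows 1.79% held it. Its first 5 letters, TGACG, which are part of every full element, were in all 7 windows and in 20.8% of all windows. Neither TGAGTCA, the AP-1 element that FOS-containing dimers bind, nor GCGTGGGCG, an EGR element, was in any of the 7 windows. The 30 bases around the match are shown for the 3 genes with the full element and for 2 with only the short match, to set the complete and the partial letters side by side. Capitals mark the letters searched.
Scg2 (chr1:79440076-79440105, minus strand): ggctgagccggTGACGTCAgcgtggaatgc
Chgb (chr2:132781559-132781588, plus strand): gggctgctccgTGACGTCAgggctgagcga
Pcsk1 (chr13:75089768-75089797, plus strand): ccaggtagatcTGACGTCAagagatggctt
Chga (chr12:102554886-102554915, plus strand): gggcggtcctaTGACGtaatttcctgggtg
Scg3 (chr9:75684068-75684097, minus strand): cgctgggtcgcTGACGccatcctcacgcct
These letters are a description of the windows, and binding was not measured. Bdnf and Ptprn, vesicle genes that were also higher in FOS+ nuclei, held no TGACGTCA in any of their 7 and 2 windows. In the GENCODE vM21 annotation, whose starts lie further upstream for Scg2 and Chgb, the matches of those 2 genes fall inside the first exon. The other 3 matches lie outside the exons of their genes.

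Depth and identity of the cells were as follows. The median total expected count was 975934 in saline cells, 1090750 in PTZ cells, 214421 in FOS− nuclei, 269061 in FOS+ nuclei and 165926 in HC nuclei. A gene was called detected at a TPM (RSEM's transcript level, scaled to transcript length and to the total of the cell) above 1. Prox1, the transcription factor that marks DGCs, was detected in all 68 whole cells, 34 of 41 FOS− nuclei, 33 of 40 FOS+ nuclei and 14 of 23 HC nuclei. Rbfox3, which encodes NEUN, was detected in 33 of 38 saline cells, 27 of 30 PTZ cells, 31 FOS− nuclei, 30 FOS+ nuclei and 11 HC nuclei. The transcripts behind the sort agreed in direction with the labels. Fos was detected in 12 FOS+ and 3 FOS− nuclei, and Arc, another immediate early gene, in 31 and 1. The range of the summed level of each list of markers of other cell types overlapped between the groups compared, and C1qa, Tmem119 and Cldn5 had a TPM of 0 in every cell and nucleus used.

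FOS+ nuclei held more RNA of Vgf, Scg2, Chgb and Pcsk1 than FOS− nuclei of the same mouse, and none of the 9 genes passed the threshold in the other direction. A level was the mean of log2(TPM + 1) over nuclei, and a difference of at least 1 was called. Over the 16411 genes compared, 5.83% were called higher and 7.99% lower in FOS+ nuclei. Of the 9 genes 4 were called higher and 0 lower, and 5 had differences between −0.82 and 0.65. The median difference of the 9 genes was 0.65, and that of all genes compared was −0.09. For detection, where a difference of at least 20 percentage points was called, Vgf, Scg2 and Pcsk1 were higher beside 4.30% of all genes, and 0 of the 9 were lower beside 3.69%.

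**Figure D1:**
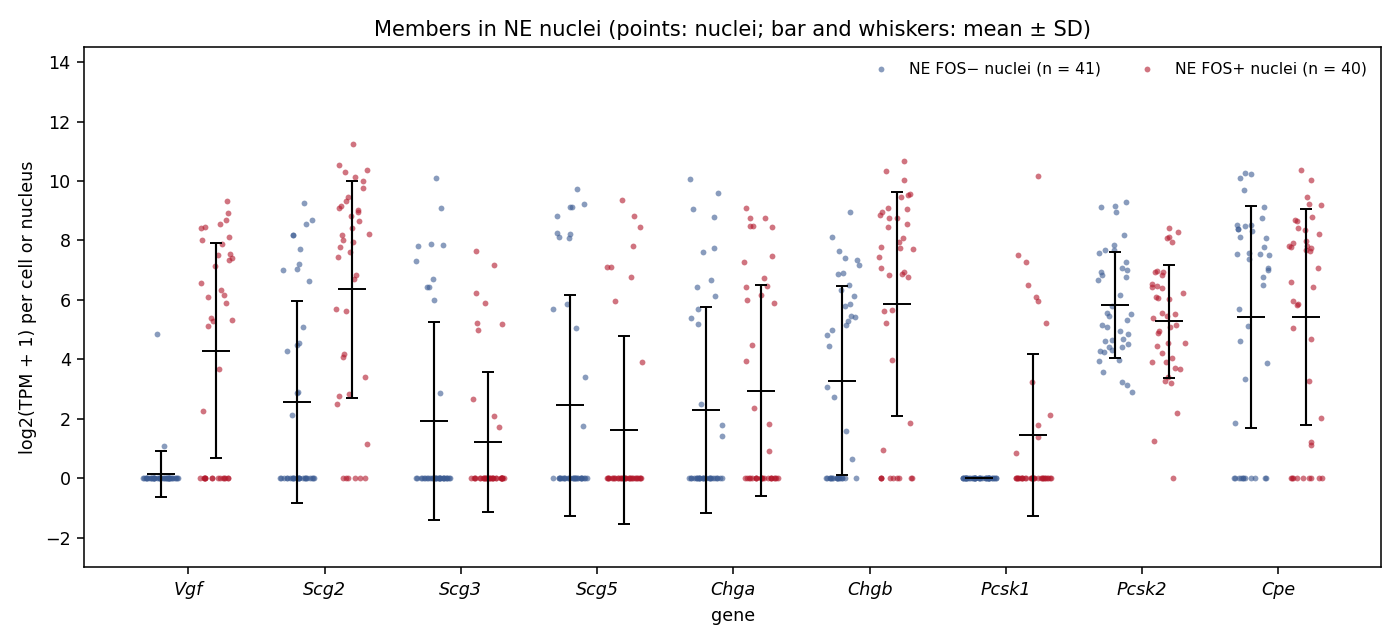
Level of the 9 genes in each NE nucleus as log2(TPM + 1), with 41 FOS− nuclei in blue and 40 FOS+ nuclei in red. Bars and whiskers are the mean and the SD over nuclei. All Pcsk1 points and all but 2 Vgf points of FOS− nuclei lie at 0 while those of FOS+ nuclei reach above 9, and the other 7 genes have high and low nuclei in both groups.

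Vgf encodes the precursor of peptides such as TLQP-21. Its TPM in FOS+ nuclei ran from 0 to 645 with a median of 39.6. In FOS− nuclei it ran from 0 to 27.8 with a median of 0. It was thus detected in 25 of 40 FOS+ nuclei (62.5%, 95% exact binomial interval 45.8 to 77.3) and in 2 of 41 FOS− nuclei (4.88%, interval 0.596 to 16.5). The mean level was 4.29 ± 3.62 (SD, n = 40) against 0.14 ± 0.77 (SD, n = 41), a difference of 4.14 that was the 28th highest of all genes compared. The groups overlapped at 0, where 15 FOS+ nuclei lay. Summed over nuclei, Vgf had 3120 counts in FOS+ and 4 in FOS− nuclei, a ratio of CPM (counts scaled to the total) of 753 with a 95% interval of 294 to 2766. These intervals cover counting error only. That of the ratio treats PCR reads, which carry no molecular identifier, as separate molecules. It leaves out the spread over nuclei and is too narrow. Of the 4 FOS− counts 3 came from 1 nucleus. Among the 25 nuclei with Vgf the median TPM was 162, so the transcript was abundant where it was present.

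Scg2 encodes secretogranin II, the precursor of secretoneurin. In FOS+ nuclei its TPM ran from 0 to 2447 with a median of 234. In FOS− nuclei the range was 0 to 606 and the median 0. Detection was 34 of 40 (85.0%, interval 70.2 to 94.3) against 17 of 41 (41.5%, interval 26.3 to 57.9). Scg2 had the highest mean level of the 9 genes in FOS+ nuclei, 6.36 ± 3.66, and ranked 4th in FOS− nuclei at 2.55 ± 3.39. The difference of 3.80 was the 34th highest of all genes compared. The groups overlapped, with nuclei at 0 and nuclei above 600 TPM in both. The ratio of summed CPM was 5.58. Its interval of 5.27 to 5.91 leaves out the spread over nuclei and is too narrow, as for Vgf.

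Chgb encodes chromogranin B, also called secretogranin I. Its TPM in FOS+ nuclei ran from 0 to 1633 with a median of 153. In FOS− nuclei it ran from 0 to 502 with a median of 7.31. It was detected in 30 of 40 FOS+ and 23 of 41 FOS− nuclei, and this difference of 18.9 percentage points lay just under the threshold. The mean levels were 5.87 ± 3.76 and 3.29 ± 3.19. Over the nuclei in which Chgb was detected, the median was 257 TPM in FOS+ and 57.6 TPM in FOS− nuclei. Summed CPM gave a ratio of 7.48 (interval 7.03 to 7.97, which again leaves out the spread over nuclei and is too narrow).

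Chga encodes chromogranin A, the best known granin of endocrine cells. Its TPM ran from 0 to 545 in FOS+ nuclei and from 0 to 1086 in FOS− nuclei, with a median of 0 in both. It was detected in 18 of 40 and 15 of 41 nuclei, and its level difference of 0.65 was not called. The summed CPM of the 2 groups had a ratio of 1.11.

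Pcsk1, which encodes the convertase PC1/3, had no count in any of the 41 FOS− nuclei, which allows a share of nuclei with a count of up to 7.32% (3 of 41) and sets no limit on nuclei that express it below this depth. Of 40 FOS+ nuclei 11 had it (27.5%, interval 14.6 to 43.9). The TPM of these 11 nuclei ran from 1.60 to 1164 with a median of 61.0. Another FOS+ nucleus lay above 0 but under the limit of detection, the groups overlapped at 0, and the level difference was 1.45. Against a floor of 3 counts over the whole FOS− group, the 580 counts in FOS+ nuclei were 187-fold higher after scaling to the group totals. This is a ratio to a chosen floor and not a lower limit. The interval of the ratio from counting error had a lower end of 151-fold. As for Vgf, that interval treats PCR reads as separate molecules, leaves out the spread over nuclei and is too narrow. A single FOS+ nucleus held 46.9% of the 580 counts, and without it the ratio to the floor was 101-fold.

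Pcsk2, which encodes PC2, was the most widely detected of the 9 genes in nuclei. Its TPM ran from 0 to 338 in FOS+ nuclei with a median of 41.7. In FOS− nuclei it ran from 6.54 to 626 with a median of 43.4. It was detected in 39 of 40 and in 41 of 41 nuclei, and the level difference of −0.55 was not called. The nearly equal medians of PC2 stood beside a PC1/3 transcript seen in FOS+ nuclei alone. Pcsk2 spans 270130 bases, and 6.10% of its 31-base sequences are shared with other genes (232 of the 481 shared ones with the antisense gene Pcsk2os1), so its reads could not be assigned with the same certainty as those of the other genes. For these other genes the shared fraction was 0, except 0.996% for Chga.

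Scg5 and Scg3 encode the 2 chaperone-like proteins of the list. Scg5 was detected in 9 of 40 FOS+ nuclei, with a TPM of up to 659, and in 14 of 41 FOS− nuclei, with a TPM of up to 846. Its level difference was −0.82. Scg3 was detected in 10 of 40 FOS+ nuclei, with a TPM of up to 201, and in 11 of 41 FOS− nuclei, with a TPM of up to 1089. Its level difference was −0.69. The medians of both genes were 0 in both groups. Their summed CPM were lower in FOS+ nuclei, with ratios of 0.420 for Scg5 and 0.166 for Scg3, but 61.5% of the Scg3 counts of FOS− nuclei came from 1 nucleus. Without the top nucleus of each group the ratio was 0.313 for Scg3 and 0.265 for Scg5.

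Cpe, the carboxypeptidase, had nearly the same mean level in both groups. Its TPM ran from 0 to 1314 in FOS+ nuclei with a median of 115. In FOS− nuclei it ran from 0 to 1237 with a median of 134. Detection was 31 of 40 and 30 of 41 nuclei, and the mean levels were 5.42 ± 3.64 and 5.42 ± 3.74.

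The NE nuclei had been amplified in 4 conditions, with a template-switching oligonucleotide (TSO) at 1 or 10 µM and spike-in RNA (ERCC) diluted 1:200 or 1:2000, each holding 8 to 11 nuclei per group. Vgf was higher in FOS+ nuclei in 4 of 4 conditions, with differences of 2.09 to 5.90 and 4, 5, 7 and 9 positive nuclei against 0 or 1. Scg2 was also higher in 4 of 4, by 0.65 to 5.38, but at 10 µM and 1:2000 it was detected in 9 of 11 nuclei of both groups. Chgb was higher in 4 of 4 by 0.78 to 5.05, and in that same condition its detection was 8 of 11 FOS+ against 9 of 11 FOS− nuclei. Pcsk1 was higher in 3 of 4 conditions and at 0 in all 21 nuclei of the fourth, with 10 µM and 1:200. For Cpe the difference was positive in 2 conditions and negative in 2, from −2.65 to 3.17. Scg3 and Scg5 were each lower in 3 conditions and higher in 1.

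**Figure D2:**
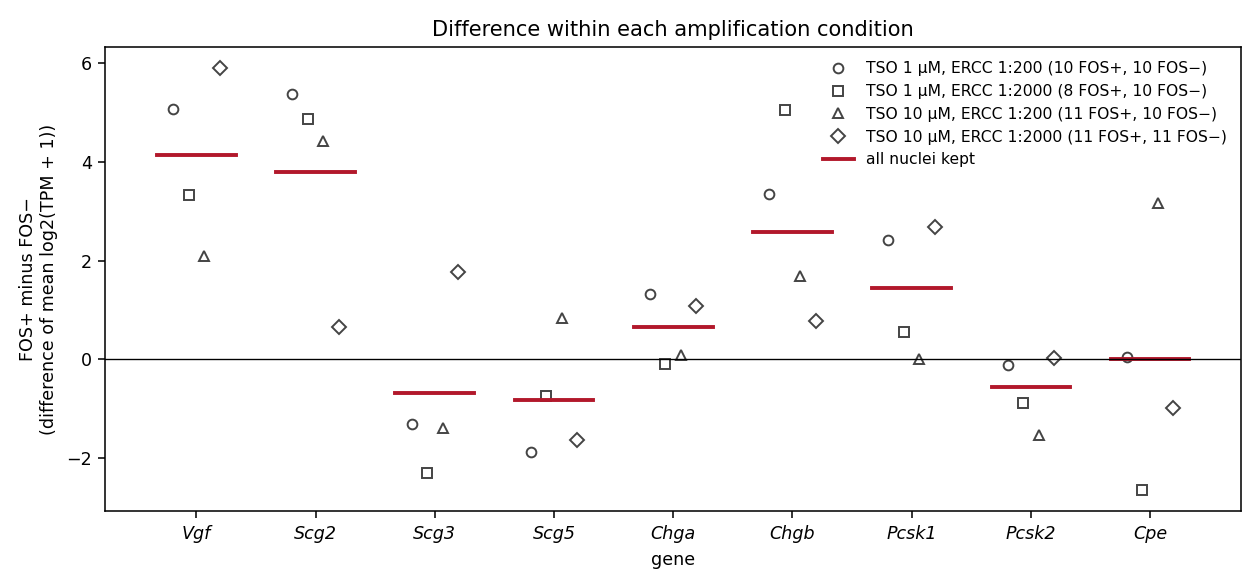
Difference in mean log2(TPM + 1) between FOS+ and FOS− nuclei within each of the 4 amplification conditions (open symbols) and over all nuclei kept (red line), for each gene. Vgf, Scg2 and Chgb lie above 0 in every condition, and the symbols of Cpe spread from −2.65 to 3.17.

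Detection of the genes in the same nuclei is given as a description, since 4 of them had been called higher in FOS+ nuclei. Of Vgf, Scg2, Chgb and Pcsk1, at least 2 were detected in 35 of 40 FOS+ nuclei, 13 of 41 FOS− nuclei and 0 of 23 HC nuclei. At least 3 were detected in 22 FOS+ nuclei and 1 FOS− nucleus. None of them was detected in 1 FOS+ nucleus and 13 FOS− nuclei. Of the 25 FOS+ nuclei with Vgf, 22 also had Scg2 and 18 had Chgb, shares close to the 34 and 30 of all 40 FOS+ nuclei with these genes. Pcsk1 was detected in 10 of the 25 Vgf nuclei and in 1 of the 15 others. Arc was detected in 24 of the 25 Vgf nuclei and in all 11 Pcsk1 nuclei, beside 31 of all 40. Fos RNA was detected in 8 of the 25, beside 12 of all 40. The median number of the 9 genes per nucleus was 5 in FOS+, 3 in FOS− and 2 in HC nuclei.

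Likeness to Vgf was measured by Pearson's r of log2(TPM + 1) over the 81 NE nuclei, for the 13214 genes detected in at least 10 of them. The nearest were Arc (r = 0.81), Ankrd33b (0.79), Pim1 (0.78), Lingo1 (0.76) and Ptgs2 (0.74). These nuclei share the sort, which alone separates many genes. Within the 40 FOS+ nuclei, which were among those used to choose the 5 genes, r was 0.60 to 0.77. Within the 41 FOS− nuclei, of which 2 had Vgf, it was −0.11 to −0.04. With the log2 total count Vgf had r = 0.33 within the FOS+ nuclei. Over the 81 nuclei Vgf had an r of 0.46 with Pcsk1, 0.44 with Scg2 and 0.12 with Chgb. Within the FOS+ nuclei these were 0.33, 0.24 and −0.16, and with Chgb it was −0.14 within the FOS− nuclei. For Scg2 the nearest genes were Synpo (0.60), Pcdh8 (0.52), Ankrd33b (0.52), Rnf128 (0.52) and Dpysl5 (0.51). Within the FOS+ nuclei these 5 had r of 0.20 to 0.50 with Scg2, and within the FOS− nuclei 0.29 to 0.47.

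HC nuclei, processed on another platform with other read lengths, held little RNA of most of the 9 genes. Vgf, Pcsk1 and Scg3 were at 0 in all 23, which allows a share of nuclei with a count of up to 13.04%, again with no limit on expression below this depth. Pcsk2 was detected in 17 nuclei, Scg2 and Cpe in 10 each, Chgb in 4, Chga in 2 and Scg5 in 1. The Scg5 value of that 1 nucleus was 2695 TPM. For Cpe a single nucleus held 91.4% of the counts and for Pcsk2 it held 67.98%. HC nuclei had 3237 ± 371 genes per nucleus (SD, n = 23) beside 6281 ± 1539 in FOS− nuclei, so the platform and the cage cannot be told apart in the lower detection.

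**Figure D3:**
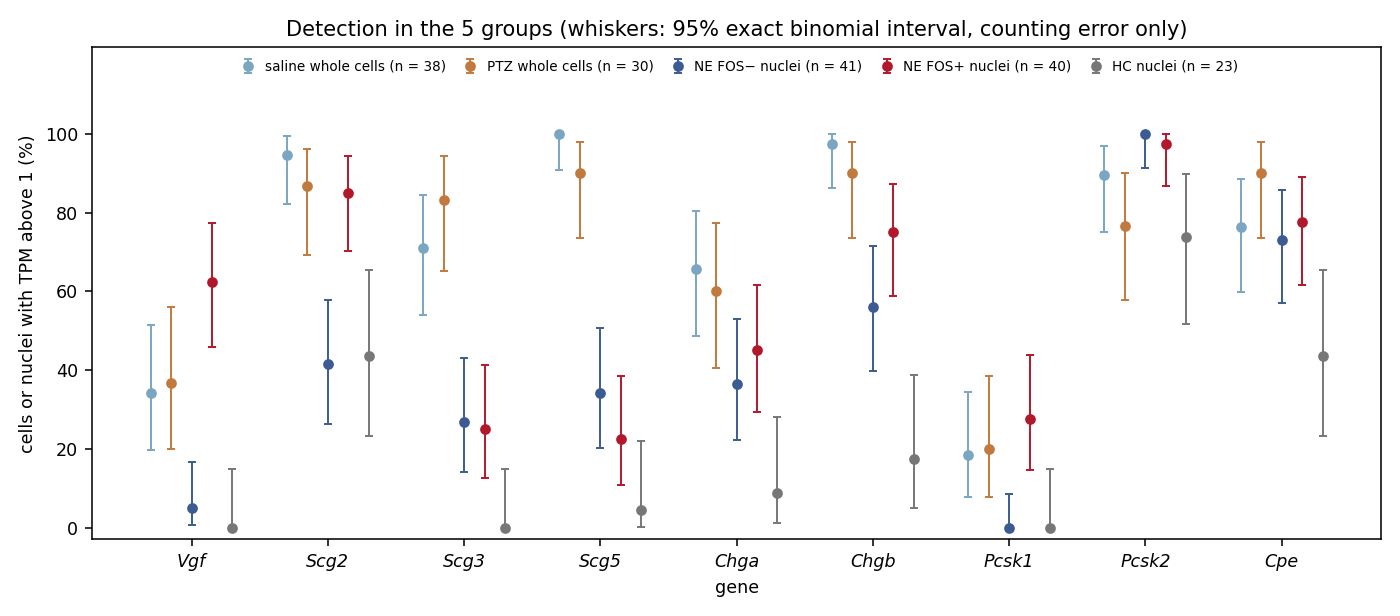
Share of cells or nuclei with a TPM above 1 for each gene in the 5 groups, with exact 95% binomial intervals that cover counting error only. Vgf is at 62.5% in FOS+ nuclei, 4.88% in FOS− nuclei and 0 in HC nuclei, and between 34.2% and 36.7% in whole cells.

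In whole cells the differences of Vgf and Pcsk1 between PTZ and saline did not pass the threshold. The titles of all PTZ cells ended in the same tag, and those of all saline cells in another. Treatment therefore cannot be told apart from any plate or batch that these tags mark. Scg2, Scg5 and Pcsk2 were lower in PTZ cells and Cpe and Scg3 were higher. Over the 14492 genes compared, 3.88% were called higher and 8.04% lower in PTZ cells, beside 2 and 3 of the 9 genes. Without 5 PTZ cells and 1 saline cell that had markers of other cell types, a choice made after seeing the data, Scg3 no longer passed the threshold (0.84) and Scg2 stood at −1.33. The summed level of the 4 astrocyte markers reached 21.04 in PTZ and 6.47 in saline cells, with a median of 0 in both, and the part of such cells in these differences was not tested. No gene of the 9 passed the threshold on detection, beside 3.12% of all genes higher and 4.35% lower. The median difference of the 9 genes was −0.26, and that of all genes compared was −0.05.

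Vgf TPM ran from 0 to 179 in PTZ cells and from 0 to 179 in saline cells, with a median of 0 in both. It was detected in 11 of 30 PTZ cells (36.7%, interval 19.9 to 56.1) and 13 of 38 saline cells (34.2%, interval 19.6 to 51.4). The mean levels were 1.67 ± 2.39 and 1.89 ± 2.75. The immediate early genes Fos and Arc were detected in 30 and 17 of the same 38 saline cells and in 26 and 14 of the 30 PTZ cells. Pcsk1 was detected in 6 of 30 PTZ cells, with a TPM of up to 95.8, and in 7 of 38 saline cells, with a TPM of up to 821. Its level difference was −0.07. Vgf was found in 5 of the 7 saline cells and 4 of the 6 PTZ cells with Pcsk1.

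Scg2 TPM had a median of 372 and a range of 0 to 2572 in PTZ cells. In saline cells the median was 892 and the range 0 to 3367. The mean levels were 7.10 ± 3.48 and 9.18 ± 2.45, and the difference of −2.08 was the 62nd lowest of all genes compared. Scg2 was not detected in 4 of 30 PTZ cells and 2 of 38 saline cells, and the summed CPM had a ratio of 0.687. Scg5, the PC2 chaperone, had a median TPM of 234 in PTZ cells with a range of 0 to 811. In saline cells the median was 606 and the range 80.9 to 2269, so every saline cell had it. The difference of −2.19 was the 39th lowest, and the ratio of summed CPM was 0.361. Pcsk2 had a median TPM of 41.5 and a range of 0 to 299 in PTZ cells. In saline cells the median was 94.025 and the range 0 to 371. The level difference was −1.46 and the ratio of summed CPM 0.615. The ranges of all 3 genes overlapped between the groups.

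Cpe had the largest positive difference of the 9 genes, 1.84, which was the 40th highest of all genes compared. Its median TPM was 136 in PTZ cells with a range of 0 to 2232. In saline cells the median was 54.7 and the range 0 to 422. Cpe was detected in 27 of 30 and 29 of 38 cells. A single PTZ cell held 38.2% of the Cpe counts, and the ratio of summed CPM was 2.77 with it and 1.90 without the top cell of each group. Scg3 had a median TPM of 55.8 in PTZ cells (range 0 to 644) and 27.7 in saline cells (range 0 to 269), and its difference was 1.20. The group means of Cpe and Scg3 therefore stood on the other side of those of Scg5 and Pcsk2. As given above, Scg3 did not pass the threshold without the cells with markers of other cell types. Chgb was detected in 27 of 30 PTZ and 37 of 38 saline cells with a difference of −0.82, and Chga in 18 and 25 cells with a difference of −0.26.

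**Figure D4:**
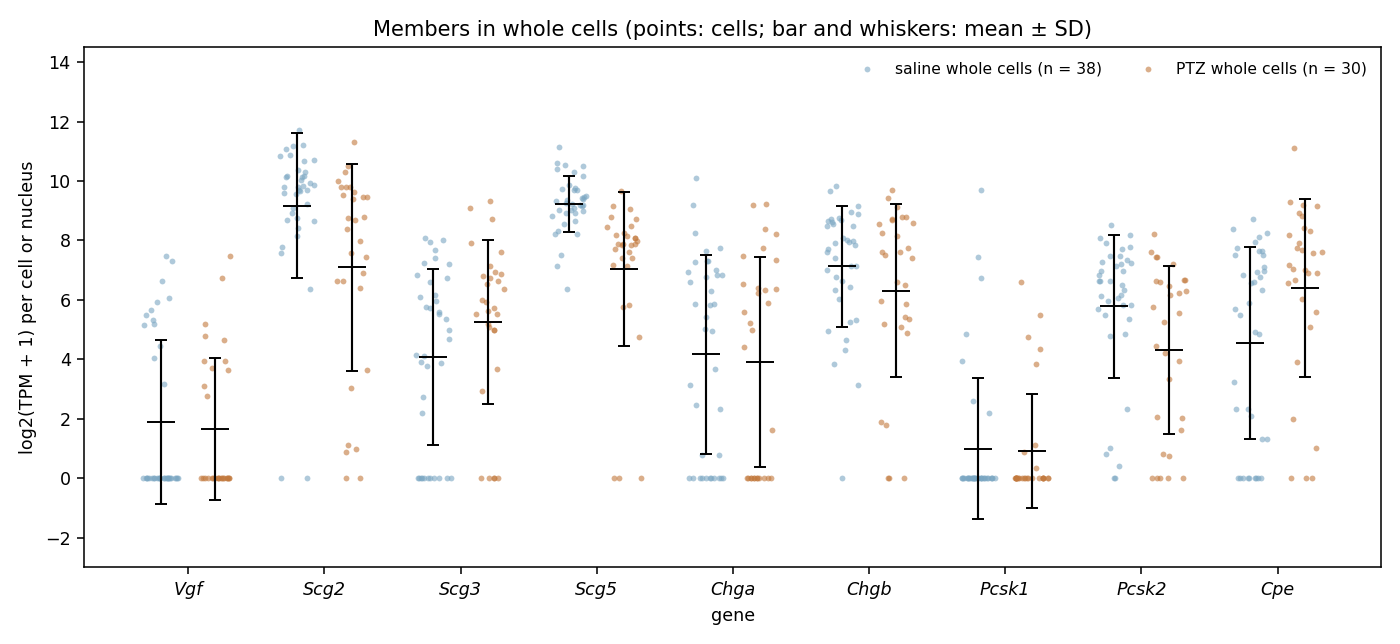
Level of the 9 genes in each whole cell as log2(TPM + 1), with 38 saline cells in blue and 30 PTZ cells in orange. Bars and whiskers are the mean and the SD over cells. Scg5 lies above 6 in every saline cell, while 3 PTZ cells are at 0.

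The 9 genes differed in the 2 comparisons as follows. Scg2 had a difference of 3.80 between FOS+ and FOS− nuclei and −2.08 between PTZ and saline cells. Vgf had 4.14 and −0.23, and Cpe had 0.01 and 1.84. The comparisons share no cells, and the difference between them was not tested.

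**Figure D5:**
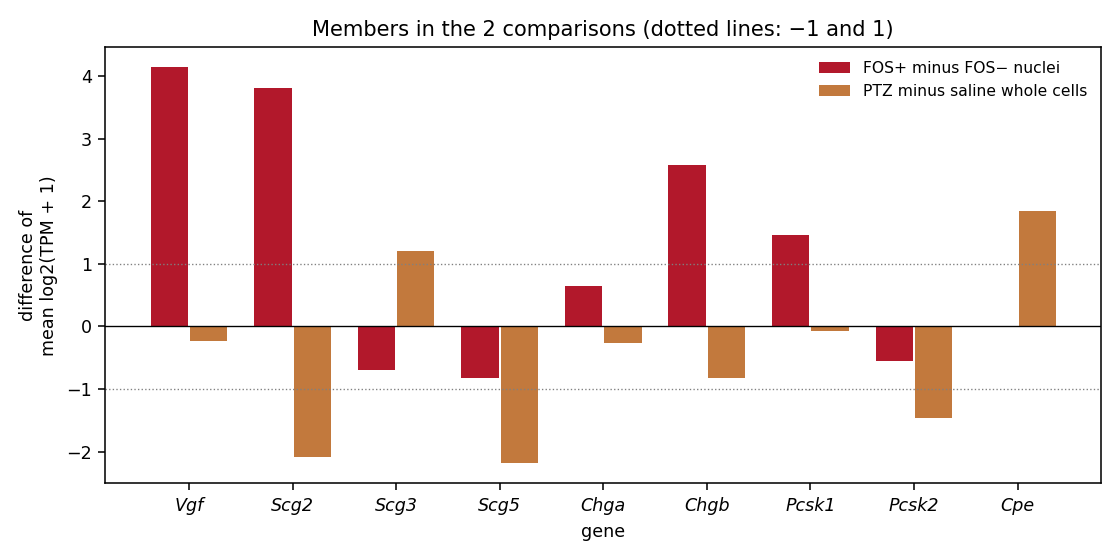
Difference in mean log2(TPM + 1) for each gene, FOS+ minus FOS− nuclei (red) and PTZ minus saline whole cells (orange), with dotted lines at the threshold of 1 in either direction. Vgf, Scg2, Chgb and Pcsk1 pass it in nuclei, and Cpe, Scg3, Scg2, Scg5 and Pcsk2 pass it in whole cells.

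Within a group the order of the genes can be read from TPM, which is scaled to transcript length. In saline cells Scg5 (9.23 ± 0.96) and Scg2 (9.18 ± 2.45) led, followed by Chgb (7.13 ± 2.04) and Pcsk2 (5.78 ± 2.39), and Vgf (1.89 ± 2.75) and Pcsk1 (0.99 ± 2.37) came last. Neighbours in this order differed by less than the larger of their SDs over cells. In FOS− nuclei Pcsk2 (5.83 ± 1.78) and Cpe (5.42 ± 3.74) led, and Vgf was 8th and Pcsk1 9th. In FOS+ nuclei Scg2 and Chgb were at the top and Vgf was 5th. Scg5 was 1st in saline cells and 7th in FOS+ nuclei. By mean TPM the order differed in places. In saline cells Scg2 (999.9) then stood above Scg5 (723.9) and Pcsk1 (30.3) above Vgf (21.3). In FOS− nuclei Cpe (236.6) stood above Pcsk2 (119.8).

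In whole cells the same measure of likeness gave other genes. Over the 68 cells and 11455 genes, the highest r with Vgf was 0.49, for Zfp58, detected in 14 cells, with Mdc1, Polr2i, Cdk11b and Scrt2 behind it at 0.49 to 0.44. Scg2 was closest to Faim2 (0.88), Cntn1 (0.83), Cx3cl1 (0.81), C1ql2 (0.79) and Tmeff2 (0.79), and these r were 0.67 to 0.91 within each treatment. C1ql2, a DGC gene that encodes a C1q-like synaptic protein, was itself lower in PTZ cells, by 1.78, as was Stxbp6, by 2.32. The part of cell identity or RNA quality in the lower Scg2 level was not tested. Scg2 had r = 0.33 with the log2 total count over the 68 cells.

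The rest of the pathway was read from 4 lists of other genes. The counts for nuclei stand beside 5.83% of all genes called higher and 7.99% lower in FOS+ nuclei. Of 20 genes of dense-core vesicle assembly and release, 18 were compared in nuclei, where 4 were higher and 3 lower in FOS+. The higher genes were Ptprn (2.86), a vesicle membrane protein also known as IA-2, Unc13a (1.81), a priming factor, Syt4 (1.78), a synaptotagmin, and Vamp2 (1.19), a vesicle SNARE. Syt7 (−1.66), a calcium sensor of release, Sort1 (−1.14), a sorting receptor, and Hid1 (−1.04) were lower. Ptprn was detected in 24 of the 25 FOS+ nuclei with Vgf, beside 36 of all 40. The median difference of this list was −0.06, close to that of all genes. Of 15 other processing enzymes and inhibitors, 11 were compared, with Ece1 higher (1.72) and Ece2 lower (−1.04), both endothelin-converting enzymes. Of 3 proteins proposed as receptors of VGF peptides, Hspa8, a chaperone, was higher (1.68) and the other two were not called. Of 17 neuropeptide and growth factor precursors only 7 were compared, and Bdnf (4.58) and Npy (1.13) were higher. Bdnf, a growth factor stored in the same kind of vesicle, had the 14th highest difference of all genes and was detected in 24 of the 25 Vgf nuclei and all 11 Pcsk1 nuclei, beside 35 of all 40 FOS+ nuclei.

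In PTZ cells the same lists held 3 lower genes of 20 in vesicle assembly and release, namely Syt4 (−1.89), Ptprn (−1.40) and Snap25 (−1.06), and 0 higher. Of all genes compared in whole cells, 8.04% were called lower and 3.88% higher. Among the proposed receptors C1qbp was lower (−1.10). None of the 11 enzymes compared and none of the 6 precursors compared passed the threshold on level. Gal, the galanin precursor, was detected in 23.3% of PTZ and 2.63% of saline cells.

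Some genes of the marker lists moved with the groups, beside 5.83% of all genes called higher and 7.99% lower in FOS+ nuclei. Of the interneuron list 1 of 3 genes compared was higher in FOS+ nuclei, namely Gad1 (1.42), and the summed level of the list ran from 0 to 18.3 in FOS+ and from 0 to 16.8 in FOS− nuclei. Of the oligodendrocyte list 1 of 3 was higher, namely Mag (1.12), with summed levels of 0 to 20.96 and 0 to 13.97 and Mog at 0 in FOS+ nuclei. Of the 6 DGC markers C1ql2 (−1.52) and Stxbp6 (−1.89) were lower, with summed levels of 12.7 to 51.1 in FOS+ and 15.1 to 47.6 in FOS− nuclei. In whole cells the same 2 of 6 were lower in PTZ, beside 8.04% of all genes. Their list's summed level ran from 6.59 to 47.9 in PTZ and from 12.2 to 47.995 in saline cells. The part of these genes in the levels of Vgf and the granins was not tested. Nuclei with any of 10 markers were then left out, a choice made after seeing the data. The markers were Gfap, Aqp4, Aldh1l1, Mog, C1qa, Csf1r, Tmem119, Cldn5, Flt1 and Slc32a1. Slc32a1, the only interneuron gene among them, was not detected in any FOS+ nucleus. Nuclei with Gad1, Gad2, Lhx6, Mag or Cx3cr1 but none of the 10 stayed in. Without the 11 FOS+ and 6 FOS− nuclei left out, the differences were 4.14 for Vgf, 4.21 for Scg2, 2.49 for Chgb and 1.61 for Pcsk1. Chga then passed the threshold at 1.30 and Scg3 at −1.10. In whole cells, without the 5 PTZ cells and 1 saline cell chosen in the same way, Scg5 stood at −2.07, Cpe at 1.47 and Pcsk2 at −1.30.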

How the data were processed

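Single whole cells and nuclei were sequenced by the authors, who trimmed reads with Solexa-QA++ and aligned them with RSEM and Bowtie (1.0.0 in the submitters' processing notes) to mm10 (GRCm38) with Ensembl genes. Each of the 3 sets has a table of the expected count per gene, deposited without normalization, and a table of TPM, deposited without a log transformation. Every value column was matched to 1 sample by its title, and groups and amplification conditions came from the labels. No 2 columns of a table were identical.

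Cells were kept with a total expected count over 50000 and a number of genes above 1 TPM over the table's mean minus 2 SD. The total stands in for uniquely aligned reads, and the spike-in criterion was not applied. All 23 HC nuclei were used, of which 22 pass. Whole cells and NE nuclei were sorted singly, HC nuclei were captured on a chip, and no doublet caller was run. The whole-cell table holds fewer PTZ cells than the study amplified. Total expected counts of the cells used ran from 63775 to 1060520 in FOS− nuclei, 80096 to 1035170 in FOS+ nuclei, 107647 to 278779 in HC nuclei, 401331 to 2696040 in saline cells and 67212 to 5129240 in PTZ cells. Where a total is T, a count of 0 allows 3 of T.

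Levels are means of log2(TPM + 1), and folds on this scale understate low genes. Genes were compared if a rounded count above 0 was found in at least 5 cells. No test was run, because each group is 1 sample. The 9 genes, the other lists and the alternatives were chosen with earlier results of these data known. Beyond the 9 genes, those named are the members of the lists past the threshold on level (at most 4 per list and comparison, by size), the 5 genes most correlated with Vgf and with Scg2, and Fos, Arc, Prox1 and Rbfox3. Gal was named for its detection after its values were seen. Alternatives used edgeR 4.0.16 in R 4.3.3 for TMM scaling of rounded expected counts, log2 ratios of summed counts, thinning to 50000 counts, other limits and pseudocounts, single conditions and leaving out each cell. Tables were read with Python 3.11.15, pandas 2.3.3 and scipy 1.17.1.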

Additional observations from a re-analysis of the deposited data

How the results depend on the processing

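No difference that passed its threshold changed sign under any alternative. The count of 4 genes past the level threshold in FOS+ against FOS− nuclei was 4 to 5 when each nucleus was left out in turn and 7 (5 higher, 2 lower) within the condition with 1 µM TSO and ERCC 1:200, where 18.3% of all genes were called higher and 10.4% lower. The detection count of 3 was 3 to 4 on leaving out each nucleus, 6 (5 higher, 1 lower) within that condition, beside 26.7% of all genes higher and 10.8% lower, and 5 (4 higher, 1 lower) within 1 µM and 1:2000, beside 10.4% and 21.6%. The Vgf difference of 4.14 was 4.01 to 4.26 on leaving out each nucleus, 9.39 as a log2 ratio of summed counts and 10.68 with the top nucleus of each group left out, because FOS− nuclei held 4 counts.

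In whole cells the level count of 5 was 5 to 6 on leaving out each cell. It was 3 over all cells (beside 3.98% of all genes higher and 3.35% lower), 3 with log2(TPM + 10) (beside 0.297% and 1.35%), 3 by summed counts (beside 13.2% and 14.1%) and 2 by summed counts without the top cell of each group (beside 15.1% and 16.7%). Over all cells the Scg5 difference was −0.83, and by summed counts the Scg2 difference was −0.54. The detection count of 0 was 1 over all cells, 1 at a limit of 5 TPM and 1 after thinning, the gene being Cpe each time, at 20.2 to 21.2 percentage points, beside 2.31%, 2.97% and 2.69% of all genes higher. The causes were not tested. Under the alternatives 448 further values lay close to the value reported, and 21 values of single genes did not. Close meant within 1 SD over cells for a level and within 1.5 times for a count. For detection it meant within the distance from the middle to the end of the wider exact interval. The limit for levels was wide, since SDs over cells were large (for Scg2 3.66 in FOS+ and 3.39 in FOS− nuclei). The Scg2 difference of 0.65 within 10 µM and 1:2000 counted as close to 3.80. The number of close values therefore does not show that the levels were stable. Leaving out cells with markers of another type and leaving out the top cell were chosen after seeing the data. A gene at 0 in a cell was not detectable at that cell's depth. No paired analysis was possible because the numbers of cells were given in accession order and pair no cells, and no test was run.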

Other observations

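The cells and nuclei left out of the comparisons held few of the 9 genes. The 8 FOS+ nuclei left out had total expected counts of 4239 to 17272, and Vgf, Scg2 and Chgb were each detected in 1 of them. The 7 FOS− nuclei left out had totals of 4000 to 46086, with each of these 3 genes in 1 nucleus as well. Pcsk1 was detected in none of these 15 nuclei. Of the 9 saline cells left out, with totals of 195 to 5318, 4 had Scg2 and 0 had Vgf or Scg5. Of the 5 PTZ cells left out, 3 had Scg2, 2 had Scg5 and 2 had Cpe.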
